A study of Mus musculus with 9 samples.

Results

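Siglecs are surface lectins of immune cells that bind sialic acid, the sugar that caps many glycans of the body's own cells. Most members carry an inhibitory motif in the cytoplasmic tail that recruits the phosphatases SHP-1 and SHP-2, whereas a few pair with the activating adaptor DAP12. In the lung, Siglec-F is the standard surface marker of alveolar macrophages (AMs) and is otherwise known from eosinophils. Transcripts of 7 Siglec genes (Siglecf, Siglec1, Siglece, Siglecg, Siglech, Cd22 and Cd33) were analysed here, taken by gene symbol from the 24346 symbols in the tables of all 9 libraries.

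All mice were C57BL/6 and 10 weeks old, and the methods describe lungs of females. Ctrl-AM (3 libraries) were AMs of vehicle-treated mice, Tumor-AM (3 libraries) were AMs of mice whose left lung had received LLC cells, a Lewis lung carcinoma line of the mouse, and Tumor-macrophage (3 libraries) were the other autofluorescent macrophages of such lungs. Cells were sorted as CD45+ and autofluorescent, with AMs Siglec-F+ and Tumor-macrophage Siglec-F- and CD11b+, so the Siglecf transcript serves below as a check of the sort and not as a finding. Tumor-bearing and control mice were bred separately according to the methods, so tumor and breeding cannot be told apart in a comparison with Ctrl-AM. The labels do not say which libraries came from which animal, and p-values therefore measure the spread between these libraries only.

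Estimated depth was 10300000 to 13000000 reads per library. The groups carried their defining genes. Summed over 14 AM markers, such as Chil3 and Ear2, the level was 33079 to 38393 FPKM for Ctrl-AM, 29015 to 45534 for Tumor-AM and 1364 to 1572 for Tumor-macrophage, where FPKM is the fragment count scaled by transcript length and by the mapped fragments of the library. Summed over 10 markers of tumor-associated macrophages, such as C1qa, it was 26.4 to 31.9, 78.7 to 140 and 14407 to 14865 FPKM in the same order. These are bulk samples, in which fewer cells of a type and less RNA per cell cannot be told apart.

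First, the order of the Siglec transcripts was determined within each population, since FPKM is scaled per length. Siglecf was the highest in both AM groups, followed by Cd33, without overlap between their libraries. Siglec1, Siglece and Cd22 formed a middle tier, in which the libraries of Siglece and Cd22 overlapped in Ctrl-AM and those of Siglec1 and Cd22 overlapped in Tumor-AM. In Tumor-macrophage the order was Cd33, Siglece, Cd22 and Siglec1, and every neighbouring pair of these 4 overlapped. Siglecg and Siglech were the lowest in both AM groups, and in Tumor-macrophage the residual Siglecf lay between them, overlapping both.

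**Figure D1:**
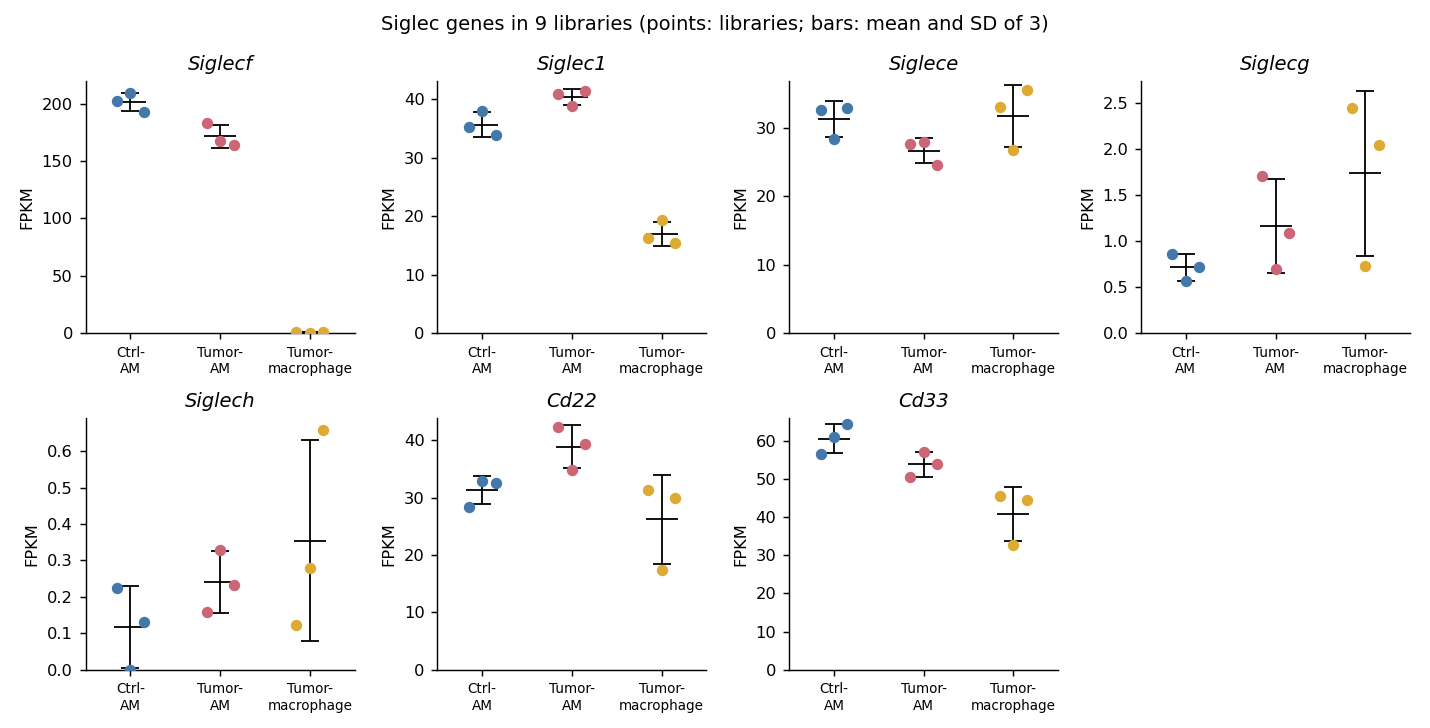
Level in FPKM of each Siglec gene in the 9 libraries, with 1 point per library, the mean as a long bar and the SD of 3 libraries as caps, and each vertical axis starting at 0. Siglecf was near 0 in Tumor-macrophage, Siglec1 and Cd33 were lowest there, and Siglece overlapped between Tumor-macrophage and each AM group.

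Summed over the 7 genes, Ctrl-AM had 361 ± 7.38 FPKM, Tumor-AM 333 ± 11.8 and Tumor-macrophage 119 ± 18.3 (mean ± SD, 3 libraries each). Siglecf made up 55.8% of this sum for Ctrl-AM, 51.5% for Tumor-AM and 0.543% for Tumor-macrophage. Without Siglecf the sum was 160 ± 5.27 FPKM for Ctrl-AM, 161 ± 1.70 for Tumor-AM and 118 ± 18.1 for Tumor-macrophage. The gate on Siglec-F fixed the share of Siglecf in advance. In Tumor-macrophage the make-up was led by Cd33 at 34.4% of the sum over 7 genes, Siglece at 26.8%, Cd22 at 21.8% and Siglec1 at 14.8%.

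**Figure D2:**
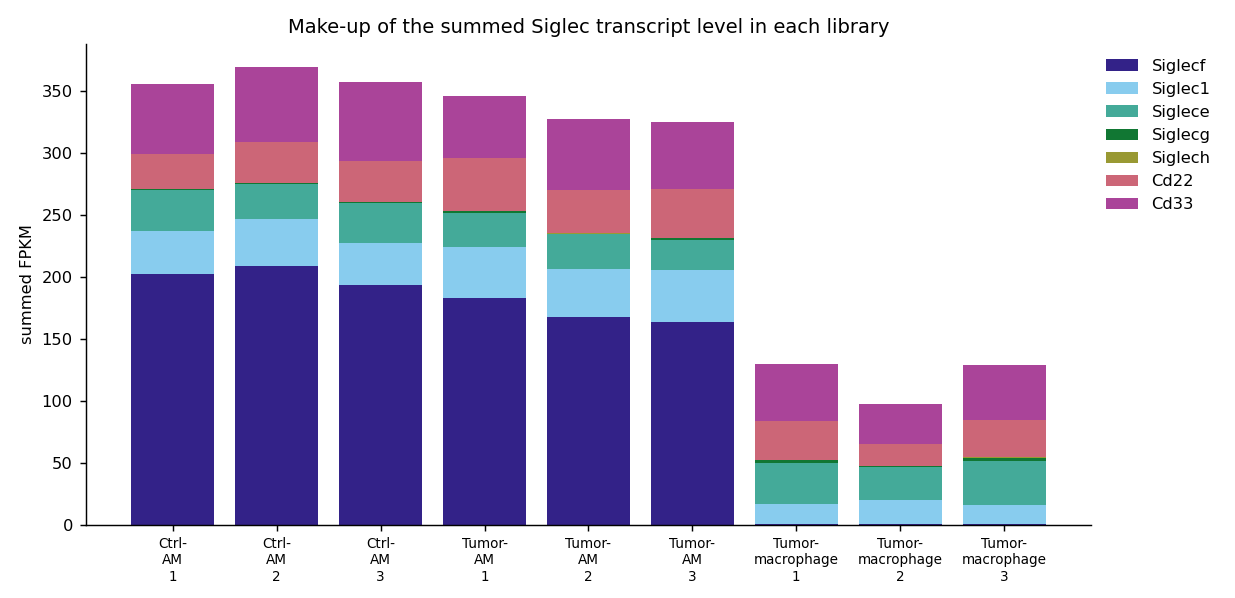
Stacked bars of the FPKM of the 7 Siglec genes in each library, starting at 0. Siglecf fills at least 50.5% of the bar in each of the 6 AM libraries and at most 0.648% in the 3 Tumor-macrophage libraries.

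Siglecf (ENSMUSG00000039013), the gene of the sorting marker, is annotated at 43351341 to 43359531 of chromosome 7 (GRCm38, plus strand). Its level measured 202, 209 and 193 FPKM for Ctrl-AM 1 to 3, then 183, 167 and 164 for Tumor-AM 1 to 3, with 0.663, 0.456 and 0.835 for Tumor-macrophage 1 to 3. Every Tumor-macrophage library was far below every AM library, as the gate requires, and the Tumor-AM libraries lay below the Ctrl-AM libraries without overlap. The residual in Tumor-macrophage corresponded to 17, 12 and 24 reads and to 0.380% of the Tumor-AM mean. When the 14 AM markers and Siglecf were ranked by this residual share, Siglecf was in place 4 from the bottom, after Krt79 (0.0814%), Cidec (0.0820%) and Ear1 (0.0848%) and before Plet1 (0.479%), whereas Mrc1 kept 51.2% and Fabp5 stood at 181%. Eosinophils also carry Siglec-F, and of 7 eosinophil genes Epx and Gata1 were at 0 in all 9 libraries, with a sum over the 7 of at most 0.370 FPKM in any AM library. That sum was 0.888 to 1.58 FPKM in Tumor-macrophage.

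Because Siglecf and Cd33 lie in the same cluster and were the most abundant pair in AMs, their sequences just before the RefSeq transcript start are shown (RefSeq, GRCm38.p6, 250 bases each, 5′ to 3′ on the strand of the gene). Siglecf is given from chr7:43351091-43351340 (plus strand) and Cd33 from chr7:43533172-43533421 (minus strand), and capitals mark runs of at least 10 bases that both share. The RefSeq start of Cd33, 43533171, is also the start of 1 of 6 GENCODE transcripts of the gene, and another of the 6 starts 11.3 kb farther upstream at 43544428, so this window lies inside the annotated gene.
Siglecf: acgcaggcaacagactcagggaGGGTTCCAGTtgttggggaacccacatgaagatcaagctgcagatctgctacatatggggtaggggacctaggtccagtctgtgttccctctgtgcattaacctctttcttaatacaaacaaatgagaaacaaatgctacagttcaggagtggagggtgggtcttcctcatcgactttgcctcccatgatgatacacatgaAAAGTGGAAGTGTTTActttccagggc
Cd33: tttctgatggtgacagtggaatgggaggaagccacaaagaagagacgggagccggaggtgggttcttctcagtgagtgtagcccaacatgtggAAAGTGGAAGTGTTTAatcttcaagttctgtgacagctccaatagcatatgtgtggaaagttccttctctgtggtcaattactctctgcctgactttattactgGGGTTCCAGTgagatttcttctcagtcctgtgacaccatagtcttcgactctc

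The longer run, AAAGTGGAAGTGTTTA, spans 16 bases. It lies 27 to 12 bases before the start of Siglecf and 157 to 142 bases before the RefSeq start of Cd33. Of 27025 genes with such a sequence in the table, 2 held this run on either strand, and these were Siglecf and Cd33. The run was taken as the longest that these 2 sequences share, so both hold it by construction. A given run of 16 bases also recurs rarely in windows of 250 bases, so its absence elsewhere carries little weight. No function of the run was tested. Upstream sequences were found for 6 of the 7 genes (Siglecf, Siglece, Siglecg, Siglech, Cd22 and Cd33), and the longest run shared by any other pair of them was 7 to 10 bases. In the 250 bases and on both strands, the letters GAGGAA, the core bound by the macrophage factor PU.1, occurred in Siglecf, Siglece, Siglecg and Cd33 and not in Siglech or Cd22, compared with 23.1% of all 27025 upstream sequences. The same search was made for 6 other patterns, namely TGANTCA for AP-1, AGGTCA for nuclear receptors, TGTGGT for RUNX, TGCTGA for MAF, TTGCNNAA for C/EBP factors and a pattern for IRF factors. Of these, Cd33 and Siglech held TGTGGT (14.2% of all), Siglecg held AGGTCA (13.8%) and Siglech held TTGCNNAA (9.55%), and there was no other match in the 6 genes. These matches describe letters in a window and no binding was measured.

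Next, AMs of tumor-bearing and control lungs were compared gene by gene. Of the 7 Siglec genes, 6 passed the filter of at least 1 FPKM in at least 3 of 9 libraries, and 0 of these were past the threshold between Tumor-AM and Ctrl-AM (limma adjusted p under 0.05), in a comparison in which 10.3% of all genes tested were past it (7.11% higher and 3.18% lower). After rescaling to TPM, in which every library sums to the same total, that split of all genes turned from 760 higher and 340 lower to 475 and 824. One of the 6, Siglecf, had an unadjusted p under 0.05. No overlap between the libraries of both groups was found for 4 of the 6 (Siglecf, Siglec1, Siglece and Cd22), and this was also the case for 32.3% of all genes tested. The median log2 change of the 6 genes was 0.0053, compared with 0.0142 over all genes. For Siglecf the log2 change was −0.23, with a 95% interval from −0.44 to −0.02 (limma adjusted p = 0.158). Rescaling to TPM put it past the threshold (−0.37, limma adjusted p = 0.0421), and that scaling moved the median of all genes to −0.11.

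Siglec1 (ENSMUSG00000027322, chromosome 2, 131069220 to 131086765, minus strand) encodes sialoadhesin, a long adhesive Siglec without an inhibitory motif that is known from tissue macrophages. Its level measured 35.2, 38.0 and 33.9 FPKM for Ctrl-AM 1 to 3, then 40.9, 39.0 and 41.5 for Tumor-AM 1 to 3, with 16.3, 19.3 and 15.4 for Tumor-macrophage 1 to 3. The 3 groups did not overlap, with Tumor-AM highest and Tumor-macrophage lowest. The fall from Tumor-AM to Tumor-macrophage was to 0.421 times the level, a log2 change of −1.21 with an SE of 0.093 (limma adjusted p = 1.57e-06). Tumor-macrophage was also below Ctrl-AM, by −1.03 (limma adjusted p = 4.45e-06). The interval for Tumor-AM against Ctrl-AM, −0.03 to 0.38, included 0 (limma adjusted p = 0.274).

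Siglece (ENSMUSG00000030474, chromosome 7, 43651070 to 43660161, minus strand) encodes the main inhibitory Siglec of mouse neutrophils and macrophages. Its level measured 32.6, 28.3 and 32.9 FPKM for Ctrl-AM 1 to 3, then 27.6, 27.9 and 24.6 for Tumor-AM 1 to 3, with 33.0, 26.7 and 35.5 for Tumor-macrophage 1 to 3. Ctrl-AM and Tumor-AM did not overlap, while Tumor-macrophage 2 lay within the Tumor-AM range and the other two Tumor-macrophage libraries lay above it. The difference between Tumor-macrophage and Ctrl-AM was 0.01 on the log2 scale with a 95% interval from −0.24 to 0.26 (limma adjusted p = 0.928). For Siglece in Tumor-macrophage against Tumor-AM the value was 0.23 (limma adjusted p = 0.112), and without Tumor-macrophage 2 it was 0.35 (limma adjusted p = 0.0158). Between Tumor-AM and Ctrl-AM it was −0.22, with an interval from −0.47 to 0.03 (limma adjusted p = 0.264).

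Cd33 (ENSMUSG00000004609, chromosome 7, 43524216 to 43544428, minus strand) encodes a Siglec of myeloid cells. Its level measured 56.6, 60.9 and 64.3 FPKM for Ctrl-AM 1 to 3, then 50.4, 57.1 and 54.1 for Tumor-AM 1 to 3, with 45.4, 32.6 and 44.4 for Tumor-macrophage 1 to 3. All Tumor-macrophage libraries lay below all AM libraries, and the ranges of both AM groups overlapped. Compared with Tumor-AM, Tumor-macrophage was at 0.758 times the level, a log2 change of −0.41 with an SE of 0.12 (limma adjusted p = 0.0172). This call was lost without Tumor-AM 2 (−0.36, limma adjusted p = 0.0563) and without the filter on low values (limma adjusted p = 0.0834). Compared with Ctrl-AM it was at 0.673 times the level (log2 change −0.57, limma adjusted p = 0.00216), and this was past the threshold under all 18 alternatives. Siglecf exceeded Cd33 2.93- to 3.63-fold in the 6 AM libraries and was at 0.0140 to 0.0188 times its level in Tumor-macrophage.

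Cd22 (ENSMUSG00000030577, chromosome 7, 30865402 to 30880342, minus strand) encodes an inhibitory co-receptor of B cells. Its level measured 28.4, 32.8 and 32.5 FPKM for Ctrl-AM 1 to 3, then 42.3, 34.9 and 39.4 for Tumor-AM 1 to 3, with 31.4, 17.3 and 29.9 for Tumor-macrophage 1 to 3. Tumor-AM lay above both other groups without overlap, and Tumor-macrophage 2 was the lowest library. Tumor-macrophage was at 0.675 times the level of Tumor-AM, a log2 change of −0.59 with an SE of 0.19 (limma adjusted p = 0.0238). The call was lost without Tumor-AM 1 (−0.53, limma adjusted p = 0.0754), without Tumor-AM 3 (−0.58, limma adjusted p = 0.0593) and without the filter on low values (limma adjusted p = 0.131). Neither Tumor-AM against Ctrl-AM (0.30, 95% interval −0.11 to 0.72, limma adjusted p = 0.363) nor Tumor-macrophage against Ctrl-AM (−0.29, 95% interval −0.70 to 0.13, limma adjusted p = 0.221) was past the threshold, although rescaling to TPM put the latter past it (−0.52, limma adjusted p = 0.0300).

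As Cd22 is known as a B-cell gene, it was set beside 9 B-cell markers (Cd79a, Cd79b, Ms4a1, Pax5, Ebf1, Blk, Fcrla, Cr2 and Fcer2a). Their sum was 12.7 to 17.8 FPKM for Ctrl-AM, 3.38 to 7.62 for Tumor-AM and 31.1 to 57.6 for Tumor-macrophage. Cd22 alone exceeded this sum in each of the 6 AM libraries and was below it in each of the 3 Tumor-macrophage libraries. Of the 4 markers that passed the filter, 4 were higher in Tumor-macrophage than in Tumor-AM, beside 24.2% of all genes higher and 24.4% lower. Cd22 was lower in that comparison, a call lost in 3 of 18 alternatives. Between Tumor-macrophage and Ctrl-AM, Cd22 was not past the threshold (limma adjusted p = 0.221). Cd79b, a subunit of the B-cell receptor, was 3.05 higher on the log2 scale (limma adjusted p = 2.77e-06). Cd79a, its partner, was lower in Tumor-AM than in Ctrl-AM (−1.20, limma adjusted p = 0.0214), a call lost without Tumor-AM 2 (limma adjusted p = 0.0608), Ctrl-AM 2 (0.0776) or Ctrl-AM 3 (0.0682) and without the filter (0.150). Within Tumor-macrophage, library 2 had the lowest level of 8 of the 9 markers, Ebf1 being the exception, as well as the lowest Cd22 and Siglecg. This was not particular to genes known from B cells. Siglece (26.7 FPKM), Cd33 (32.6) and the residual Siglecf (0.456) were also lowest in library 2, whereas Siglec1 (19.3) was highest there. The part of B cells in these values was not tested.

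The neighbouring gene Mag, the Siglec of myelin, was also detected. It lies on the same strand as Cd22 from 30899176 to 30914873, 18.8 kb away. Mag was at 16.1 to 18.1 FPKM for Ctrl-AM, 16.9 to 20.6 for Tumor-AM and 12.1 to 14.4 for Tumor-macrophage. It was lowest in Tumor-macrophage without overlap, by −0.51 relative to Tumor-AM (limma adjusted p = 0.00214) and by −0.39 relative to Ctrl-AM (limma adjusted p = 0.00945). The mean of Cd22 was also lowest there, but its libraries overlapped those of Ctrl-AM (limma adjusted p = 0.221). The ratio of Cd22 to Mag was 1.57 to 2.14 in the AM libraries and 1.35 to 2.47 in Tumor-macrophage. Of all 75-base windows of Cd22 transcripts, 5.89% also occur in the overlapping antisense gene Gm29439, which was not analysed here, and 0% of those of Mag occur elsewhere. The other Siglec gene outside the set, Siglec15, was listed at 0 in 8 of 9 libraries.

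**Figure D3:**
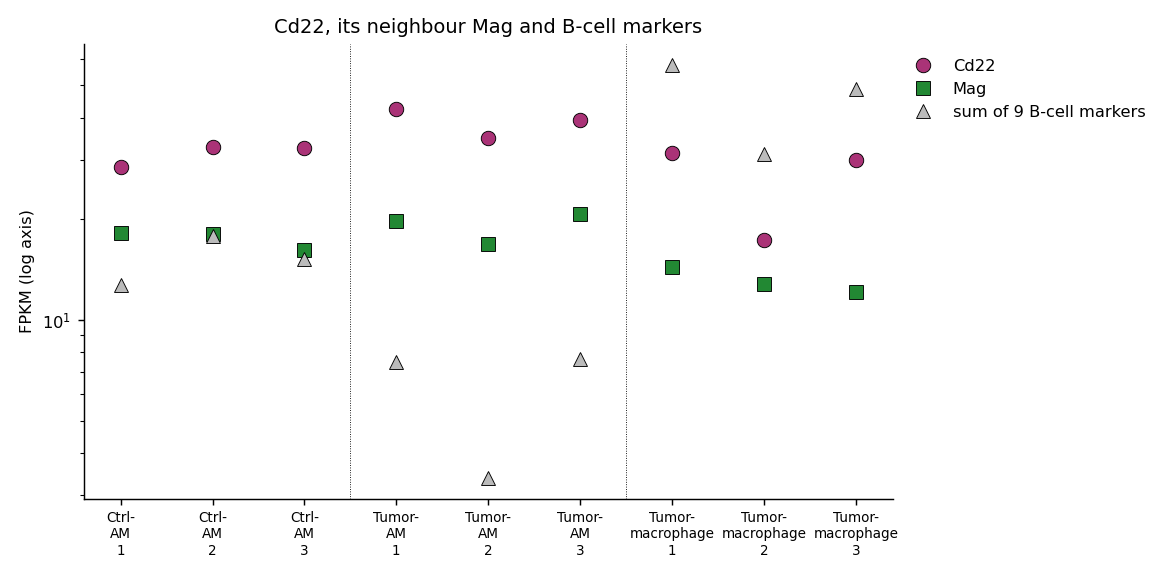
FPKM on a log axis of Cd22, the neighbouring gene Mag and the sum of 9 B-cell markers in each library. Cd22 lies above the summed markers in the 6 AM libraries and below them in the 3 Tumor-macrophage libraries.

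Siglecg (ENSMUSG00000030468, chromosome 7, 43408204 to 43418358, plus strand) encodes an inhibitory Siglec known from B cells. Its level measured 0.858, 0.564 and 0.721 FPKM for Ctrl-AM 1 to 3, then 1.71, 0.701 and 1.09 for Tumor-AM 1 to 3, with 2.45, 0.730 and 2.04 for Tumor-macrophage 1 to 3. Tumor-macrophage 1 and 3 lay above all AM libraries, but Tumor-macrophage 2 lay among those of Ctrl-AM. These values correspond to 18 to 24, 20 to 45 and 19 to 62 reads in the 3 groups. They carry a larger counting error than those of the other tested Siglec genes, apart from the residual Siglecf in Tumor-macrophage (17, 12 and 24 reads). Tumor-macrophage exceeded Ctrl-AM by 0.62 with a 95% interval from 0.05 to 1.19 (limma adjusted p = 0.0616), and by 0.92 without Tumor-macrophage 2 (limma adjusted p = 0.00350). Against Tumor-AM the value was 0.30 (limma adjusted p = 0.354), and 0.61 without Tumor-macrophage 2 (limma adjusted p = 0.0319). Between Tumor-AM and Ctrl-AM it was 0.31, with an interval from −0.25 to 0.88 (limma adjusted p = 0.501).

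Siglech (ENSMUSG00000051504, chromosome 7, 55768178 to 55778925, plus strand) encodes the DAP12-paired Siglec that marks plasmacytoid dendritic cells. It did not pass the filter. The 9 libraries held 0 to 18 reads of it, with 6, 0 and 4 for Ctrl-AM 1 to 3, then 4, 9 and 7 for Tumor-AM 1 to 3, with 3, 7 and 18 for Tumor-macrophage 1 to 3. The groups overlapped, and without the filter the limma adjusted p of the 3 comparisons was 0.332 to 0.874. Of 10 other genes listed for those cells, 5 passed the filter. All 5 (Tcf4, Ly6d, Cox6a2, Irf8 and Bst2) were higher in Tumor-macrophage relative to Tumor-AM, beside 24.2% of all genes tested. Of these 5, Irf8 and Bst2 were already at 36.4 to 57.1 and 50.8 to 89.2 FPKM in the AM libraries. Cox6a2 reached 1 FPKM only in Tumor-macrophage and so passed the filter through that group. The part of plasmacytoid dendritic cells in these levels was not tested. Of the genes that missed the filter, Tlr9, Spib, Klk1 and Ccr9 had a higher mean in Tumor-macrophage than in Tumor-AM and Pacsin1 a lower one. Ccr9 was at most 0.260 FPKM in every library. In the fit without the filter, the 95% interval of the log2 change of Siglech was −0.21 to 0.51 for Tumor-AM against Ctrl-AM. It was −0.25 to 0.47 for Tumor-macrophage against Tumor-AM and −0.10 to 0.62 for Tumor-macrophage against Ctrl-AM.

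Siglecf was lower in Tumor-macrophage by construction of the gate, so the other 5 tested genes were counted without it. Of these 5, 3 had lower levels in Tumor-macrophage relative to Tumor-AM (Siglec1, Cd22 and Cd33) and 0 were higher, in a comparison in which 48.6% of all genes tested were past the threshold (24.2% higher and 24.4% lower). The same 3 genes had groups without overlap, as did 55.3% of all genes. Without Tumor-macrophage 2, Siglece and Siglecg were also past the threshold, as higher, and without the filter Siglec1 alone of the 5 was past it. Between Tumor-macrophage and Ctrl-AM 2 of the 5 were past the threshold, both lower (Siglec1 and Cd33), and the same 2 did not overlap, compared with 54.8% of all genes past the threshold (27.7% higher and 27.1% lower) and 62.3% without overlap. For all genes, rescaling to TPM turned the latter split from 2960 higher and 2900 lower to 2130 and 4409. The median log2 change of the 5 was −0.41 against Tumor-AM and −0.29 against Ctrl-AM, and the median over all genes was 0.0012 and −0.0082. Both comparisons use the same Tumor-macrophage libraries, so they are not independent.

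**Figure D4:**
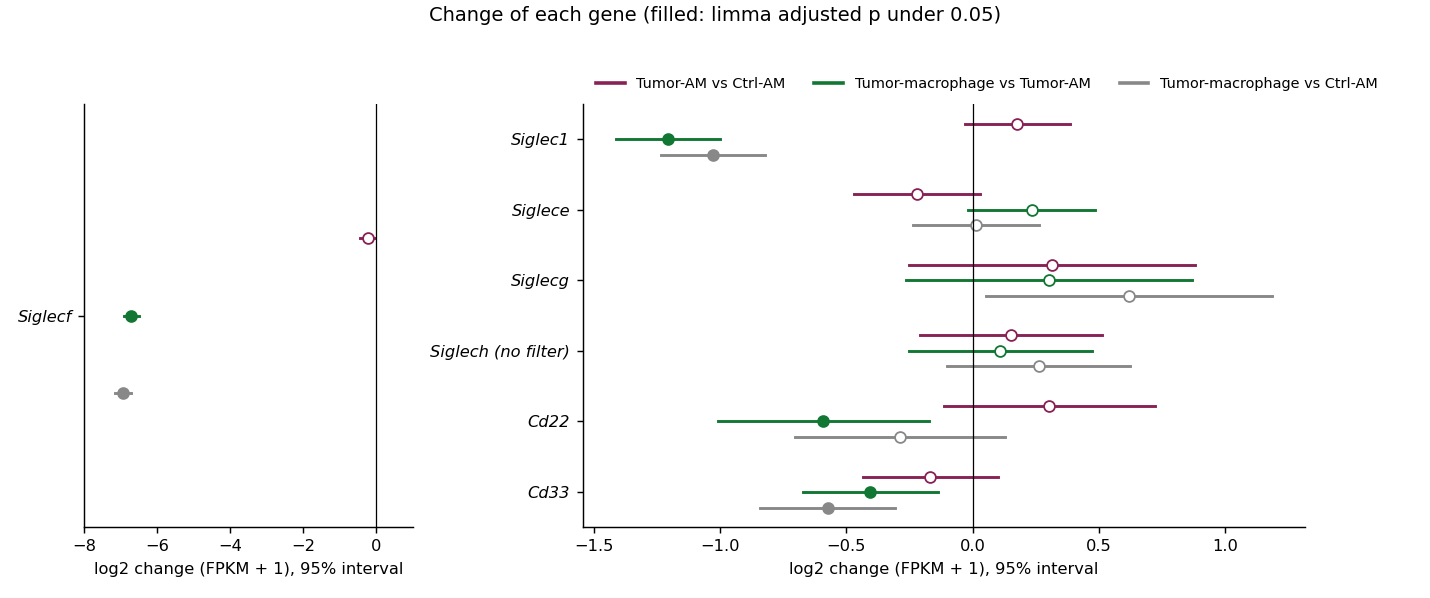
Log2 change of FPKM + 1 with its 95% interval for each Siglec gene in 3 comparisons, Siglecf on an axis of its own, filled where the limma adjusted p was under 0.05 and, for Siglech, from the fit without a filter. The intervals of Tumor-AM against Ctrl-AM lie between −0.47 and 0.88, and those of Siglec1, Cd22 and Cd33 against Tumor-AM lie below 0.

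The genes that make, move and remove sialic acid were then examined, because Siglecs bind it on neighbouring glycans as well as on their own cell. Of 20 sialyltransferases, the enzymes that attach sialic acid, 10 passed the filter, of which 5 had higher and 2 had lower levels in Tumor-macrophage relative to Tumor-AM, beside 24.2% and 24.4% of all genes. St6galnac4 measured 5.08, 5.12 and 5.40 FPKM for Ctrl-AM 1 to 3, then 8.04, 10.3 and 7.69 for Tumor-AM 1 to 3, with 33.6, 34.2 and 31.1 for Tumor-macrophage 1 to 3. The 3 groups did not overlap and increased in this order, by 0.63 from Ctrl-AM to Tumor-AM (limma adjusted p = 0.00589) and by 1.82 from Tumor-AM to Tumor-macrophage (limma adjusted p = 2.50e-07), each past the threshold under all 18 alternatives. In the comparison of Tumor-AM with Ctrl-AM, 8 of the 10 markers of tumor-associated macrophages were also higher, beside 7.11% of all genes. The part of such macrophages in the higher levels of St6galnac4 and of Lgals3bp, Socs3 and Blnk described next was not tested. St3gal6 (by 1.84), St8sia4 (by 1.27) and St3gal5 were also higher in Tumor-macrophage, all at a limma adjusted p no higher than 0.00121. St3gal5 reached 1 FPKM only in Tumor-macrophage, so it was tested and counted through the group in which it was high. St6gal1, which makes the linkage that CD22 prefers and was named for this after its values were seen, was 1.20 higher (6.36 compared with 2.16 FPKM, limma adjusted p = 0.000162). In this comparison Cd22 was lower, a call lost in 3 of 18 alternatives. In Ctrl-AM the mean of St6gal1 was 3.21 FPKM, and Cd22 was not past the threshold between Tumor-macrophage and Ctrl-AM (limma adjusted p = 0.221).

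Of 7 tested genes of sialic acid supply, 2 had higher and 3 had lower levels in Tumor-macrophage relative to Tumor-AM (1 and 3 after rescaling to TPM), beside 24.2% and 24.4% of all genes. Among the lower ones was Gne, which starts sialic acid synthesis (5.59 to 3.06 FPKM, log2 change −0.70, limma adjusted p = 0.00462). The lysosomal sialidase gene Neu1 was at 58.2 to 60.3 FPKM for Ctrl-AM, 68.3 to 70.3 for Tumor-AM and 39.7 to 42.6 for Tumor-macrophage. These ranges did not overlap, with Tumor-macrophage 0.72 below Tumor-AM on the log2 scale (limma adjusted p = 4.35e-06) and Tumor-AM 0.22 above Ctrl-AM, just outside the threshold (limma adjusted p = 0.0533). Between Tumor-AM and Ctrl-AM, 2 of 10 sialyltransferases (St6galnac4 and St3gal1) and 1 of 7 supply genes (Cmas) were higher and 0 were lower, where 7.11% of all genes were higher and 3.18% lower. The calls of St3gal1 (0.49, limma adjusted p = 0.0315) and Cmas (0.31, limma adjusted p = 0.0352) were lost in 9 and 11 of 18 alternatives, each of the 3 Ctrl-AM libraries left out in turn among them, with limma adjusted p-values of up to 0.120 and 0.171.

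Several glycoproteins are known as Siglec ligands or carriers of sialic acid. Of 6 tested, 2 had higher and 2 had lower levels in Tumor-macrophage relative to Tumor-AM (2 and 3 after rescaling to TPM), beside 24.2% and 24.4% of all genes, and the largest changes were in opposite directions. Cd24a, which carries a ligand of Siglec-G, was at 71.3, 101 and 91.2 FPKM in Tumor-AM 1 to 3 and at 14.2, 8.65 and 10.9 in Tumor-macrophage 1 to 3 (log2 change −2.87, limma adjusted p = 1.92e-07). Cd52, a short glycopeptide of leukocytes, was at 494 to 540 FPKM in Tumor-AM and at 1821 to 1991 in Tumor-macrophage (1.84, limma adjusted p = 4.86e-08). Lgals3bp, a secreted sialylated glycoprotein, was at 92.7 to 98.7 FPKM for Ctrl-AM, 162 to 195 for Tumor-AM and 471 to 521 for Tumor-macrophage. It was the 1 carrier of 6 past the threshold between Tumor-AM and Ctrl-AM (0.91, limma adjusted p = 0.000211), and it stood 1.46 higher again in Tumor-macrophage (limma adjusted p = 1.25e-07).

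Downstream of the receptors, 8 of 11 genes of the inhibitory arm (phosphatases, Src-family kinases and their regulators) were higher in Tumor-macrophage than in Tumor-AM and 1 was lower. Rescaling to TPM left 6 higher and 1 lower, and of all genes 24.2% were higher and 24.4% lower. Socs3, which binds phosphorylated inhibitory tails, had means of 4.78 ± 0.476, 11.6 ± 1.93 and 87.6 ± 7.89 FPKM (SD, n = 3) for Ctrl-AM, Tumor-AM and Tumor-macrophage, a log2 change of 1.12 (limma adjusted p = 0.000599) and then 2.82 (limma adjusted p = 2.76e-08). The lipid phosphatase gene Inpp5d was 1.01 higher in Tumor-macrophage (limma adjusted p = 5.46e-06) and the kinase gene Src 1.95 higher (limma adjusted p = 9.44e-07), whereas the kinase gene Fgr was lower (−1.16, limma adjusted p = 5.72e-07). Src reached 1 FPKM only in Tumor-macrophage, so it was tested and counted through the group in which it was high. Ptpn6, the gene of SHP-1 and named for that role after its values were seen, was at 216 FPKM in Tumor-AM and 268 in Tumor-macrophage (0.31, limma adjusted p = 0.0102), a call lost after rescaling to TPM (0.21, limma adjusted p = 0.0852).

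In the activating arm, 3 of 9 tested genes were higher and 4 lower, or 2 and 4 after rescaling to TPM, beside the same 24.2% and 24.4% of all genes. Tyrobp, which encodes DAP12 and was named for that role after its values were seen, was among the most abundant transcripts at 4429 to 5039 FPKM over all 9 libraries, and its change between Tumor-macrophage and Tumor-AM was 0.04 with a 95% interval from −0.14 to 0.21 (limma adjusted p = 0.728). Blnk, an adaptor best known from B cells, was at 0.982 to 1.29 FPKM for Ctrl-AM, 2.15 to 3.80 for Tumor-AM and 60.2 to 82.6 for Tumor-macrophage. This is a log2 change of 0.86 (limma adjusted p = 0.0107, lost without the filter at 0.0791) and then 4.21 (limma adjusted p = 1.29e-08). Its level in Tumor-macrophage exceeded the summed B-cell markers in Tumor-macrophage 1 to 3, which were 57.6, 31.1 and 48.6 FPKM, and the part of B cells in it was not tested. Pik3ap1, another adaptor, was lower (−1.13, limma adjusted p = 2.54e-06). In Tumor-AM against Ctrl-AM, 2 of 11 genes of the inhibitory arm (Socs3 and Fyn) and 1 of 9 of the activating arm (Blnk) were higher and 0 were lower, where 7.11% of all genes were higher and 3.18% lower. Rescaling to TPM left 1 in each arm. The call of Fyn (0.44, limma adjusted p = 0.0248) was lost in 6 of 18 alternatives, with limma adjusted p-values up to 0.110, among them those without Ctrl-AM 1, Ctrl-AM 3, Tumor-AM 1 or Tumor-AM 3.

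**Figure D5:**
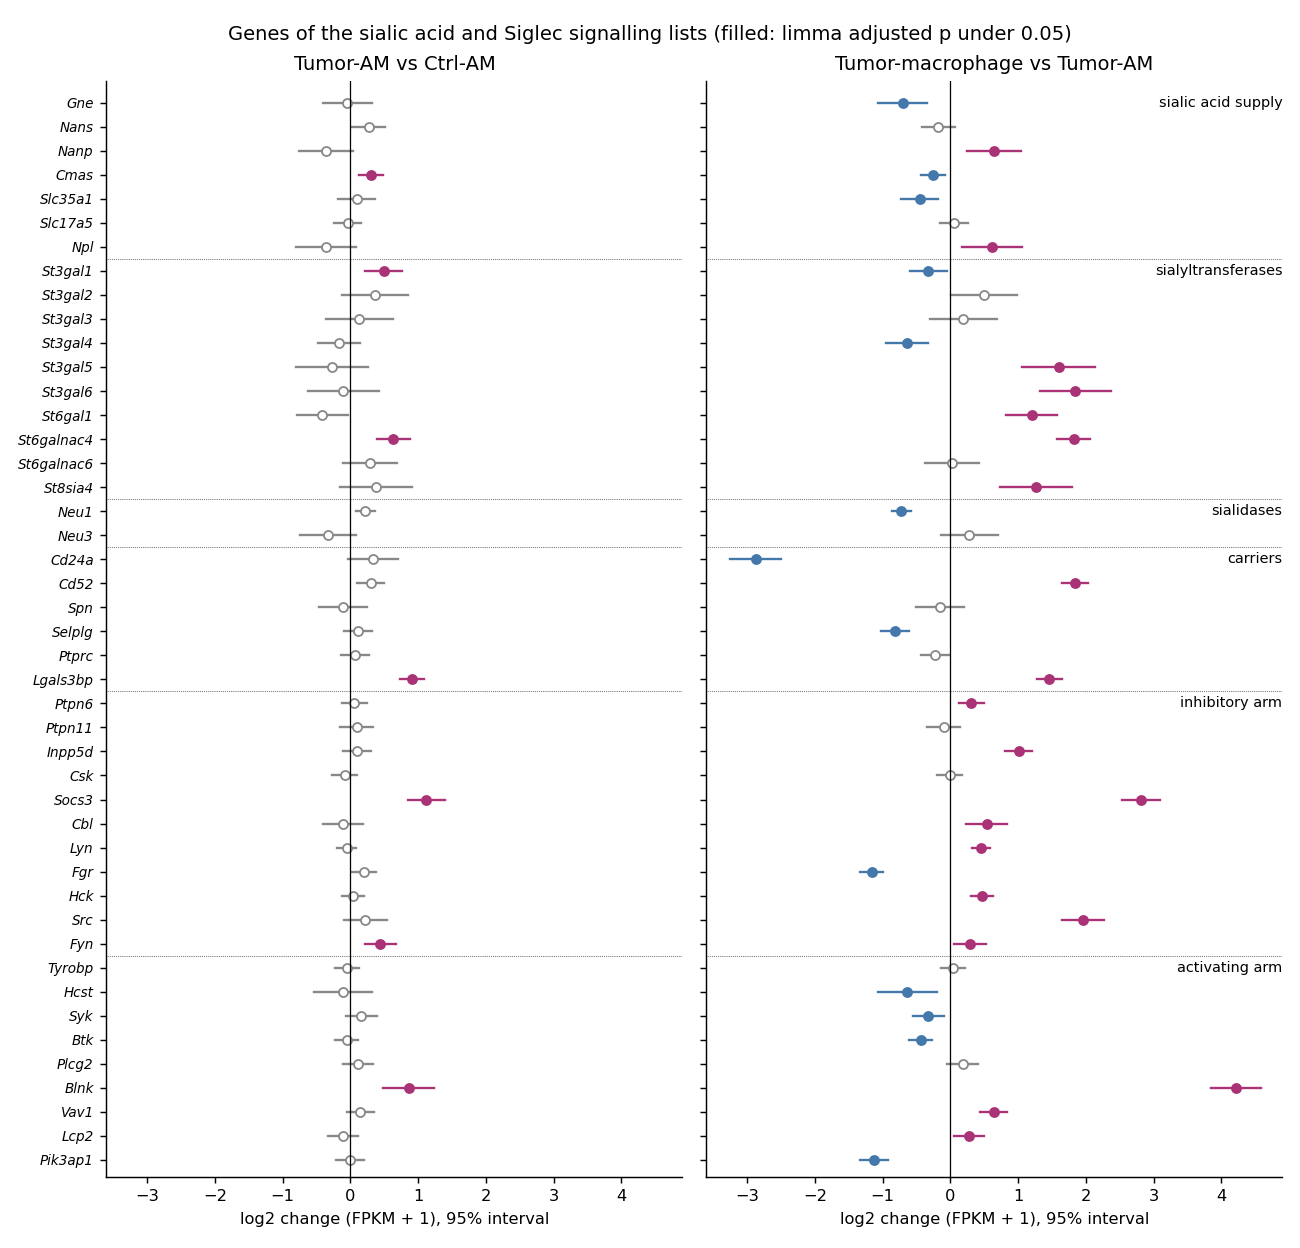
Log2 change of FPKM + 1 with its 95% interval for the tested genes of sialic acid supply, sialyltransferases, sialidases, sialic acid carriers and both signalling arms, for Tumor-AM against Ctrl-AM (left) and Tumor-macrophage against Tumor-AM (right), filled where the limma adjusted p was under 0.05. On the right, 5 of 10 sialyltransferases and 8 of 11 genes of the inhibitory arm lie above 0 and are filled, and Blnk (4.21) lies farthest from 0. Of the filled genes on the right, St3gal5 and Src reached 1 FPKM only in Tumor-macrophage.

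Finally, the genes most like each Siglec in pattern were listed, by Pearson correlation of log2(FPKM + 1) over the 9 libraries among genes with a mean of at least 10 FPKM. These correlations share the same libraries and mostly the same split between AMs and Tumor-macrophage, so they are descriptions. Siglecf was most like Angptl4 (r = 0.9996), Mcemp1 and Alox5, and Angptl4 had mean levels of 198 FPKM for Tumor-AM and 8.62 for Tumor-macrophage. Siglec1 was most like Plcb2 (r = 0.996), Mvd and Gas2l1, and Cd33 most like Glul (r = 0.963), Laptm4a and Zfp672. Cd22 was most like Dnase1l1 (r = 0.952), Cdadc1 and Tbc1d9. The summed B-cell markers all had a mean below 10 FPKM, so none of them could be listed here. Siglece was most like Ap1s2 (r = 0.889), Apool and Rps27rt, and Siglecg most like Dazap2 (r = 0.967), Srrd and Mkl1.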

How the data were processed

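RNA from 9 sorted macrophage samples (3 groups of 3) had been amplified with the SMART-Seq HT kit, made into Nextera libraries and sequenced as single-end reads of 75 bases. According to their methods and processing notes, the authors mapped reads to mm10 with TopHat2 2.1.1 and Bowtie2 and deposited FPKM from the Cufflinks suite (Cuffdiff 2.2.1 in the notes). The annotation, the handling of shared reads and the use of strand are not given in the sources used here. Levels in FPKM can shift when a few RNAs take up much of a library.

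FPKM was tested as log2(FPKM + 1) with limma 3.58.1 (R 4.3.3, intensity trend, 3 group means, all 9 libraries), for 10686 genes with at least 1 FPKM in at least 3 libraries. Tests were two-sided and adjusted over all these genes (Benjamini-Hochberg, threshold 0.05). The pseudocount of 1 understates changes of low genes. Errors of means are SDs, and those of changes are standard errors (SE). Reads were estimated from the spacing of low FPKM values. For relative depth, 80.0% to 85.4% of the ratios of such values to those of Ctrl-AM 1 matched ratios of whole numbers up to 6. On a displaced grid, at most 1.05% did. The absolute number of reads came from the most common step of low values and had no such check. These reads cover counting error only. Positions and transcripts came from GENCODE vM21 (GRCm38) and upstream sequences from RefSeq, and Python 3.11.15 was used for these.

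Named genes were the 7 Siglec genes, for each list and comparison up to 4 genes with the largest change past the threshold or a member needed as a marker, and the 3 genes most like each Siglec. The Siglec genes, lists and tests were chosen with earlier results of these data known. Alternatives were another pseudocount, other filters, 3 scalings, a constant prior variance, 2 groups per fit, a replicate block and leaving out each library. A listed B-cell marker is not reported here and was left out of the sums.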

Additional observations from a re-analysis of the deposited data

How the results depend on the processing

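The count of Siglec genes past the threshold, Siglecf included, was 0 for Tumor-AM against Ctrl-AM, and it became 1 (Siglecf) after rescaling to TPM. It stayed at 0 when any library was left out (0 to 0). For Tumor-macrophage against Tumor-AM the count of 4 became 2 with no filter on low values, and it was 3 to 6 when 1 library was left out. For Tumor-macrophage against Ctrl-AM the count of 3 was 3 to 4 when 1 library was left out and 4 after rescaling to TPM. The change of Siglece between Tumor-macrophage and Ctrl-AM, 0.01, took the other sign with quantile normalization (−0.016), rescaling to TPM (−0.22) and without Ctrl-AM 2 (−0.05), Tumor-macrophage 1 (−0.018) or Tumor-macrophage 3 (−0.069), at limma adjusted p-values of 0.116 to 0.918. Its range with 1 library left out was −0.069 to 0.129. The cause of these shifts was not tested.

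Rescaling to TPM raises all levels, since FPKM sums to 635560 to 785745 per library. In Ctrl-AM the TPM of Siglecf, Siglec1, Siglece, Siglecg, Siglech, Cd22 and Cd33 was 309, 54.8, 48.1, 1.10, 0.182, 48.0 and 93.2. In Tumor-AM the values were 240, 56.5, 37.2, 1.64, 0.332, 54.3 and 75.1 in the same order of genes. In Tumor-macrophage they were 0.845, 22.3, 41.3, 2.25, 0.458, 34.0 and 53.1. TPM moved the median log2 change of all genes to −0.11 for Tumor-AM against Ctrl-AM (475 higher and 824 lower genes, compared with 760 and 340) and to −0.22 for Tumor-macrophage against Ctrl-AM (2130 and 4409, compared with 2960 and 2900).

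Same-numbered libraries of different groups correlated at −0.0615 to 0.159 in their deviations from the group means. In no pair of groups were all correlations over 0.1, and for Tumor-AM and Tumor-macrophage they were 0.026 to 0.109. The numbers were not used as pairs in the main fit. Such correlations cannot show whether same-numbered libraries came from the same mice. With the replicate block the counts were 0, 4 and 4, where Siglecg entered for Tumor-macrophage against Ctrl-AM (0.62, limma adjusted p = 0.0149). Without the filter 24346 genes were tested, and Tumor-AM against Ctrl-AM gave 348 higher and 157 lower genes. Leaving out Ctrl-AM 1 gave 406 and 132. The alternatives for list genes were chosen after seeing the data. Siglech rests on at most 18 reads, and low counts limit Siglecg in the same way.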

Other observations

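The Siglec genes of chromosome 7 were also set beside the other genes of their cluster. Between Siglecf and Siglece, a stretch of 309 kb, 15 protein-coding genes are in the tables, 4 of them Siglec genes and 11 others. The mitochondrial electron transfer gene Etfb was the most abundant of the 11, at 288 to 306 FPKM for Ctrl-AM, 259 to 301 for Tumor-AM and 101 to 112 for Tumor-macrophage, so it was lower in the Siglec-F- population without overlap. Nkg7, a granule gene of cytotoxic lymphocytes, was at 4.01 to 4.71 FPKM for Ctrl-AM, 3.30 to 11.9 for Tumor-AM and 13.4 to 22.8 for Tumor-macrophage. Lim2 was listed at 0 in every library. Of the 11, Nkg7 alone had a higher mean in Tumor-macrophage than in each AM group, and the part of lymphocytes in it was not tested. Vsig10l, Zfp719 and Zfp819 were lower there without overlap, at means of 0.833, 1.31 and 0.0782 FPKM. Zfp658 and Ceacam18 had a lower mean with overlap, and Cldnd2, Iglon5 and 4931406B18Rik were at 0 in every Tumor-macrophage library. These genes were chosen for their position after the values of the Siglec genes were seen.

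The 10 markers of tumor-associated macrophages were present at low levels in each AM group. C1qa in Tumor-AM was at 0.451% of its Tumor-macrophage mean and in Ctrl-AM at 0.120%, and the range over the 10 genes was 0.451% to 14.0% in Tumor-AM and 0.120% to 9.41% in Ctrl-AM. The residual Siglecf in Tumor-macrophage, 0.380% of the Tumor-AM mean, was below each of the 10 shares in Tumor-AM.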
